A study of Rattus norvegicus with 12 samples.

Results

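The genes described here are 10 of the 13 protein-coding genes of the rat mitochondrial chromosome that the deposited expression table lists. They were chosen by name, as the rows Mt-nd1, Mt-nd2, Mt-nd4, Mt-nd5, Mt-nd6, Mt-cyb, Mt-co1, Mt-co2, Mt-co3 and Mt-atp6 among 22431 genes, by a rule that uses no measured value. All 10 had values in every library and passed the filter on low values. The table lists 37 genes on that chromosome in all, the others being the 3 short messenger RNAs Mt-nd3, Mt-nd4l and Mt-atp8, 2 ribosomal RNAs and 22 transfer RNAs.

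The samples were poly(A) RNA libraries of the prefrontal cortex of 12 wild-type rats in early adolescence, with 4 animals in each group and 1 library from each animal. The groups were rats exposed to oxycodone in utero (IUO), rats exposed to oxycodone postnatally (PNO) and saline controls. Oxycodone is an opioid agonist, and its dosing is labelled as 15 mg/kg by oral gavage in a window before pregnancy or in one after it that ran to postnatal day 21, without a statement of which window applies to IUO and which to PNO. Litters of 2 dams gave the animals of each group, 2 from each dam, and the labels name neither strain nor sex and tie no animal to a dam, so that animals of 1 litter could not be grouped in the tests and p values may be too small.

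The mitochondrial chromosome is a small circle that mitochondria keep apart from the nuclear genome, and its protein-coding genes all encode subunits of the respiratory chain or of the ATP synthase. A single polymerase copies each strand into a long precursor, from which transfer RNAs at the gene borders are cut out to release the messenger RNAs, so that the level of each messenger depends on its processing and stability as well as on its transcription. In neurons the respiratory chain supplies most of the ATP that maintains ion gradients and synaptic transmission, and every complex with a mitochondrially encoded subunit also needs subunits encoded in the nucleus.

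Around the circle the 10 genes span positions 2740 to 15278 of chromosome MT, in the coordinates that the deposited table prints. Mt-nd1 (2740 to 3694), Mt-nd2 (3904 to 4942), Mt-co1 (5323 to 6867), Mt-co2 (7006 to 7689), Mt-atp6 (7919 to 8599), Mt-co3 (8599 to 9382), Mt-nd4 (10160 to 11537), Mt-nd5 (11736 to 13565) and Mt-cyb (14136 to 15278) lie on the plus strand of the table. Mt-nd6 (13543 to 14061) is the only 1 of the 10 on the minus strand, and its end overlaps that of Mt-nd5 by 23 bases. Mt-atp6 overlaps Mt-atp8 by 43 bases and Mt-nd4 overlaps Mt-nd4l by 7 bases, so reads in those stretches could be assigned to either gene. The library kit keeps strand, but the sources used here do not say whether the counting used it. Without strand, reads of Mt-nd6 cannot be told from antisense reads of the opposite precursor, and the level of Mt-nd6 is uncertain for that reason. Copies of mitochondrial DNA in the nuclear genome can also share reads with these genes.

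Libraries held between 49227533 and 60672246 counts, and each of the 10 genes had at least 74893 counts in every library, so that counting error mattered less than differences between animals. Across the 14170 genes tested, the mean Pearson's r of a library with the rest of its group was lowest for IUO 4, at 0.961, and 0.968 to 0.979 for the others. Markers of the striatum were raised in IUO 1, IUO 2, PNO 2 and saline 2, where their mean log2 CPM lay between 5.10 and 6.91, against 3.97 to 4.12 in the other libraries. Markers of the olfactory bulb were raised in IUO 3, PNO 1, PNO 3 and PNO 4, at 3.80 to 4.68 against 0.83 to 1.81, and in no saline library. Neuronal markers were present in all libraries, the summed level of 5 such genes being 2774 to 3386 CPM in IUO, 2726 to 3184 CPM in PNO and 2496 to 3327 CPM in saline libraries. In bulk tissue, fewer mitochondria-rich cells and less mitochondrial RNA per cell cannot be told apart.

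These 10 messengers were among the most abundant transcripts of the tissue. Their summed counts made up 14.3%, 15.2%, 15.3% and 12.9% of all counts in IUO libraries 1 to 4, 13.7%, 16.0%, 13.9% and 15.0% in PNO libraries, and 16.9%, 15.1%, 16.0% and 16.2% in saline libraries. The share averaged 14.4 ± 1.14% in IUO, 14.6 ± 1.05% in PNO and 16.1 ± 0.731% in saline rats (SD, n = 4 each). IUO 4 had the lowest share and saline 1 the highest, and the saline group's lowest library, saline 2, lay within the range of both oxycodone groups. The difference of means was -1.63 percentage points between IUO and saline, and -1.11 without IUO 4. Between PNO and saline it was -1.41 percentage points, and between IUO and PNO it was -0.22, with the sign of the last turning when IUO 4 (0.30) or PNO 2 (0.22) was left out. These sums over a chosen set of genes were not tested.

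**Figure D1:**
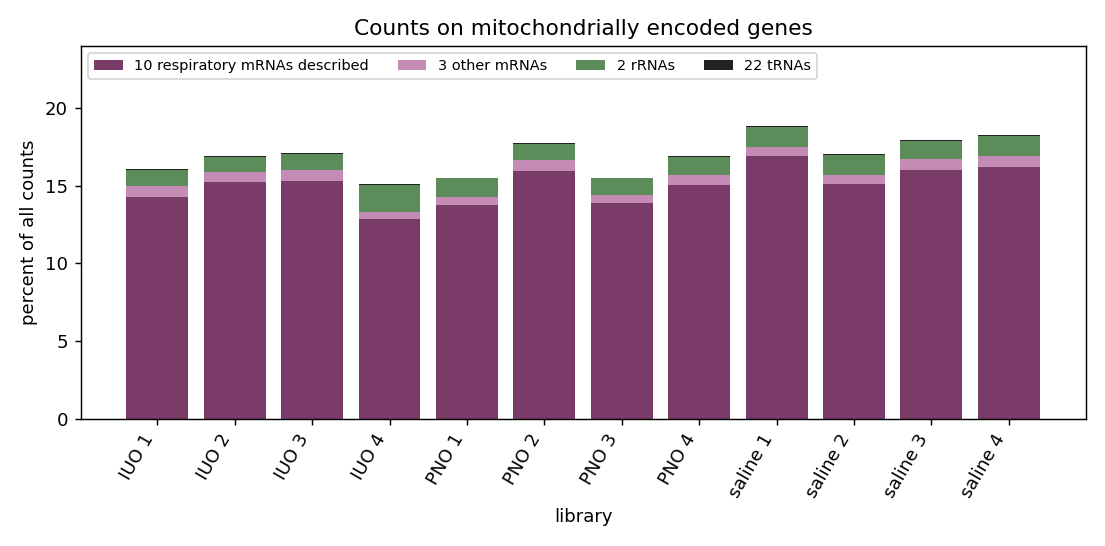
Percent of all counts per library (vertical axis) that fell on the 10 respiratory messengers described, the 3 other mitochondrial messengers, the 2 ribosomal RNAs and the 22 transfer RNAs, as stacked bars for the 4 IUO, 4 PNO and 4 saline libraries. The 10 messengers took between 12.9% (IUO 4) and 16.9% (saline 1), and IUO 4 also had the tallest ribosomal RNA segment, 1.77% of its counts.

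Compared per length, as FPKM (fragments scaled to transcript length and to library size, as deposited), the 10 genes held 25.98% to 33.0% of the summed FPKM of a library. Mt-atp6 ranked first of all 22431 genes with a mean of 27972 FPKM over the 12 libraries, followed by Mt-co1 with 25227, Mt-co3 with 22671 and Mt-co2 with 19135 FPKM. Mt-nd1 (11233 FPKM), Mt-cyb (10751 FPKM), Mt-nd2 (10664 FPKM) and Mt-nd4 (8004 FPKM) came next among the 10. Mt-nd6 (2679 FPKM) and Mt-nd5 (2029 FPKM) stood lowest, at ranks 15 and 17 of all genes. The most abundant nuclear gene, the neuronal calmodulin-binding protein gene Nrgn, had 3542 FPKM and rank 14.

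The order of the 10 by FPKM was nearly fixed across libraries. Mt-atp6 exceeded Mt-co1 in 12 of 12 libraries, and Mt-co1 exceeded Mt-co3, and Mt-co3 exceeded Mt-co2, in 11 of 12. Mt-nd1, Mt-cyb and Mt-nd2 could not be ordered beyond their spread: Mt-nd1 exceeded Mt-cyb in 8 of 12 libraries by a mean log2 ratio of 0.06 ± 0.10 (SD), and Mt-cyb exceeded Mt-nd2 in 7 of 12 by 0.01 ± 0.10. Mt-nd6 exceeded Mt-nd5 in 12 of 12 libraries by 0.41 ± 0.27. The subunits of complex IV and of the ATP synthase thus stood above those of complexes I and III in FPKM. In counts, which are not corrected for length, Mt-co1 alone held 28.0% of the 10 genes' counts on average and Mt-nd6 1.00%.

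The study asked how oxycodone exposure before birth and after birth differ in their effects on the offspring, so each exposure was compared with saline and with the other. In the comparison of IUO with saline rats, all 10 messengers had a negative fitted log2 fold change, between -0.25 (Mt-co1) and -0.01 (Mt-nd5), and none passed the test. Their median was -0.14, beside 0.02 over all 14170 genes tested, of which 43.6% were negative. In the comparison of PNO with saline rats 9 of 10 were negative, between -0.22 (Mt-nd1) and -0.08 (Mt-cyb), while Mt-nd5 was at 0.12. That median was -0.18, beside 0.01 over all genes, of which 48.8% were negative. Both comparisons share the 4 saline libraries, and the 10 genes share precursors and a compartment, so neither the comparisons nor the genes are independent of each other. No gene of the genome reached an adjusted p under 0.05 in edgeR's quasi-likelihood test, adjusted over all 14170 genes by Benjamini-Hochberg, in either comparison (0.0% called), and the 10 genes' smallest adjusted p was 0.998 for IUO and 0.439 for PNO. DESeq2 called 11 genes for IUO against saline (0.0777%) and 117 for PNO against saline (0.826%), none of them among the 10.

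At an unadjusted edgeR p under 0.05, Mt-co1 and Mt-atp6 were lower in IUO than in saline rats, 2 of 10 against 1.71% of all genes tested, and none was higher, against 2.31%. These were also the 2 whose IUO libraries all lay under the saline libraries, against 1.03% of all genes, and none had all of them above, against 1.15%. For PNO, Mt-co3 and Mt-atp6 were lower at an unadjusted p under 0.05, 2 of 10 against 4.22% of all genes, and none was higher, against 6.82%. The libraries of Mt-atp6 alone did not overlap with saline, 1 of 10 against 4.66% lower and 5.17% higher among all genes. The share of PNO calls without regard to direction was 11.0% of all genes and that of IUO calls 4.02%.

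Complex IV, cytochrome c oxidase, takes electrons from cytochrome c and reduces oxygen to water, and Mt-co1, Mt-co2 and Mt-co3 encode its catalytic core. Mt-co1, the subunit that holds the oxygen-reducing centre, had 38873, 41962, 41002 and 35376 CPM (counts scaled to a common library size with TMM factors) in IUO libraries 1 to 4. It had 38232, 44987, 38167 and 42306 CPM in PNO libraries, against 51262, 42163, 45377 and 47538 CPM in saline libraries. Every IUO library was under the lowest saline library, saline 2, with IUO 2 close under it, and the PNO and saline groups overlapped. Mt-co1 averaged 39303 ± 2919 CPM in IUO and 46585 ± 3821 CPM in saline rats, a log2 fold change of -0.25 (standard error, SE, 0.10; edgeR adjusted p = 0.998). For PNO, at 40923 ± 3330 CPM, it was -0.19 (SE 0.10, edgeR adjusted p = 0.516). The transfer RNA gene AY172581.19 overlaps the end of Mt-co1 by 3 bases on the opposite strand. If the counting did not use strand, its counts cannot be told from the end of the Mt-co1 transcript.

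Mt-co2, the subunit that receives electrons from cytochrome c, had 13223, 12051, 14119 and 16590 CPM in IUO libraries. It had 12225, 13323, 13208 and 14441 CPM in PNO libraries, against 16229, 13974, 14879 and 16132 CPM in saline libraries. IUO 4 held the highest Mt-co2 level of all 12 libraries, and the groups overlapped in both comparisons. The log2 fold change was -0.13 (SE 0.11) for IUO, which became -0.22 without IUO 4 and -0.06 without IUO 2, and -0.20 (SE 0.11) for PNO against saline rats.

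Mt-co3, a structural subunit of the core, had 17798, 18951, 19908 and 18085 CPM in IUO libraries. It had 17186, 19675, 17419 and 18471 CPM in PNO libraries, against 22962, 19587, 20048 and 21202 CPM in saline libraries. In each oxycodone group 3 libraries lay under the lowest saline library and 1 lay above it, IUO 3 and PNO 2. The log2 fold change was -0.17 (SE 0.09, edgeR adjusted p = 0.998) for IUO and -0.20 (SE 0.09, edgeR adjusted p = 0.439) for PNO.

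Complex V, the ATP synthase, uses the proton gradient to make ATP, and Mt-atp6 encodes the subunit that forms the proton path beside the rotating ring. It had 19105, 20121, 21150 and 16961 CPM in IUO libraries. It had 18273, 21286, 19065 and 20609 CPM in PNO libraries, against 23089, 21783, 23042 and 23465 CPM in saline libraries. All 8 oxycodone libraries were under the lowest saline library, saline 2, with PNO 2 the nearest to it and IUO 4 the farthest. Mt-atp6 averaged 19334 ± 1789 CPM in IUO and 22845 ± 733 CPM in saline rats, a log2 fold change of -0.24 (SE 0.09, edgeR adjusted p = 0.998). For PNO, at 19808 ± 1383 CPM, it was -0.21 (SE 0.09, edgeR adjusted p = 0.448). DESeq2 gave Mt-atp6 an adjusted p of 0.560 for IUO.

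**Figure D2:**
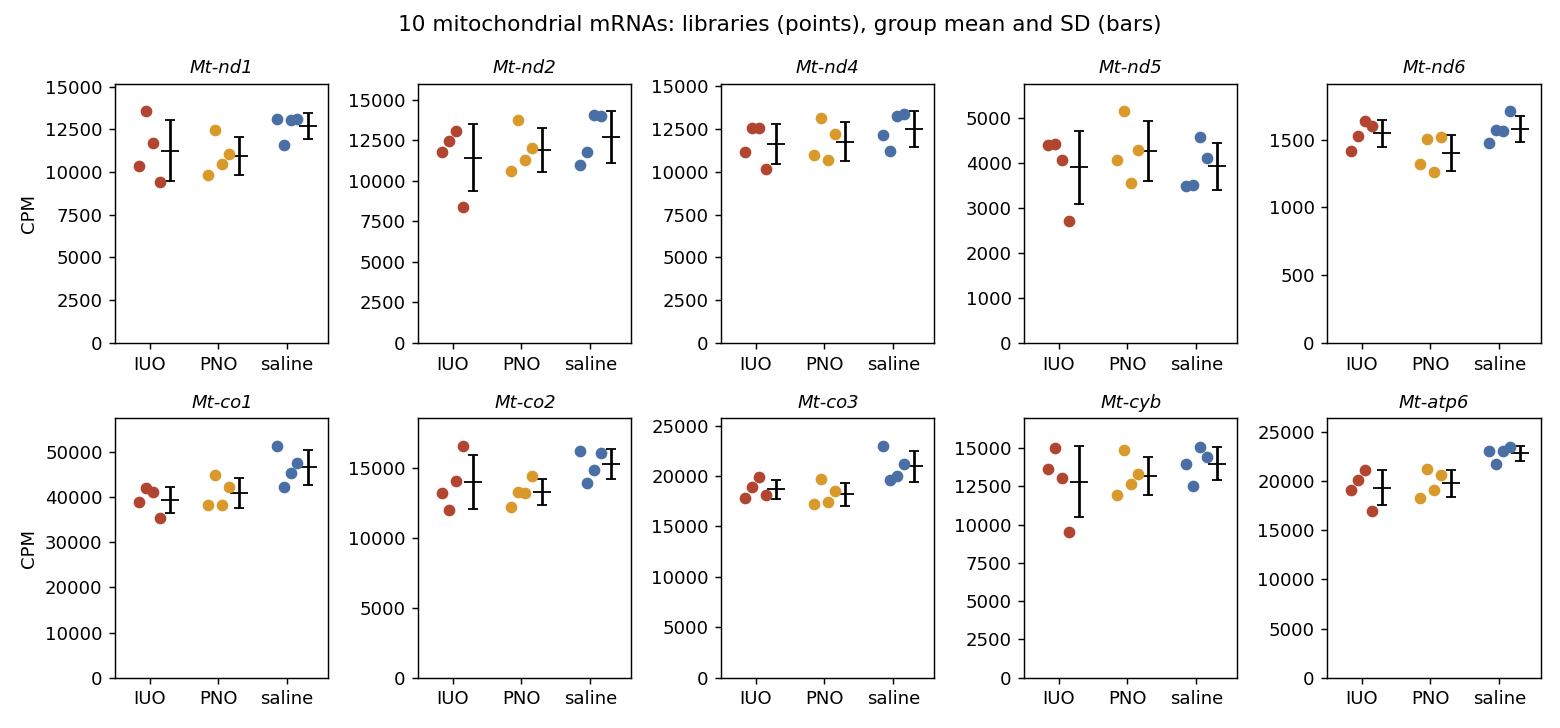
Level of each of the 10 messengers in CPM (vertical axes, from 0) for the IUO, PNO and saline groups; each point is 1 library, in the order of its number, and the bars give the group mean and SD (n = 4). For Mt-atp6 all 8 oxycodone points lie under the 4 saline points, of which the lowest is 21783 CPM, while for Mt-nd5 and Mt-nd6 the 3 groups overlap.

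Complex I, the NADH dehydrogenase, passes electrons from NADH to ubiquinone, and the mitochondrially encoded subunits among the 10, Mt-nd1, Mt-nd2, Mt-nd4, Mt-nd5 and Mt-nd6, all belong to its proton-pumping membrane arm. Mt-nd1, next to the ubiquinone site, had 10342, 13551, 11711 and 9405 CPM in IUO libraries. It had 9804, 12454, 10499 and 11037 CPM in PNO libraries, against 13125, 11572, 13041 and 13111 CPM in saline libraries. Saline 2 stood apart from the other saline libraries, and all groups overlapped. The log2 fold change of Mt-nd1 was -0.18 (SE 0.12) for IUO, which became -0.10 without IUO 4, and -0.22 (SE 0.12) for PNO, the lowest of the 10 for PNO.

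Mt-nd2 and Mt-nd4 encode antiporter-like subunits of the same arm. Mt-nd2 ranged from 8412 to 13083 CPM in IUO and from 10629 to 13763 CPM in PNO libraries, against 10949 to 14046 CPM in saline libraries. Mt-nd4 ranged from 10160 to 12575 CPM in IUO and from 10680 to 13153 CPM in PNO libraries, against 11216 to 13387 CPM in saline libraries. IUO 4 was the lowest library for both. Their log2 fold changes lay between -0.15 and -0.09 in both comparisons with saline rats. Without IUO 4 those for IUO were -0.03 for Mt-nd2 and -0.05 for Mt-nd4.

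Mt-nd5, the antiporter-like subunit at the far end of the arm, had 4388, 4427, 4064 and 2707 CPM in IUO libraries. It had 4063, 5142, 3547 and 4290 CPM in PNO libraries, against 3488, 3499, 4572 and 4116 CPM in saline libraries. It was the only 1 of the 10 with a positive log2 fold change for PNO, 0.12 (SE 0.16), and had the smallest for IUO, -0.01 (SE 0.16), which became 0.13 without IUO 4. Mt-nd5 also had the widest intervals, with a 95% interval of -0.36 to 0.34 for IUO and -0.23 to 0.47 for PNO.

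Mt-nd6, a small hydrophobic subunit and the single protein-coding gene of its strand, had 1418, 1525, 1639 and 1603 CPM in IUO libraries. It had 1320, 1506, 1258 and 1519 CPM in PNO libraries, against 1473, 1571, 1559 and 1708 CPM in saline libraries. The 3 groups overlapped, with 2 PNO libraries under all the others. The log2 fold change was -0.03 (SE 0.09) for IUO and -0.17 (SE 0.09, edgeR adjusted p = 0.501) for PNO.

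Complex III, the cytochrome bc1 complex, passes electrons from ubiquinol to cytochrome c, and Mt-cyb encodes cytochrome b, its only mitochondrially encoded subunit. Mt-cyb had 13617, 14981, 13074 and 9541 CPM in IUO libraries. It had 11962, 14871, 12663 and 13298 CPM in PNO libraries, against 13926, 12502, 15040 and 14445 CPM in saline libraries. IUO 4 again was the lowest of the 12 libraries, and the groups overlapped. The log2 fold change was -0.13 (SE 0.13) for IUO, which became -0.01 without IUO 4, and -0.08 (SE 0.13) for PNO.

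No difference between the 2 oxycodone groups passed the test in these genes. In the comparison of IUO with PNO, 6 of 10 log2 fold changes were negative, beside 49.2% of all genes, and their median was -0.03, beside 0.00 over all genes. None of the 10 had an unadjusted edgeR p under 0.05, beside 6.73% of all genes (3.06% lower and 3.67% higher), none was called at an adjusted p under 0.05 (0.0% of all genes; DESeq2 called 8 genes, 0.0565%), and the groups overlapped for all 10, whereas they did not overlap for 1.78% of all genes, lower in IUO, and 1.85%, higher. The values ran from -0.13 for Mt-nd5 to 0.14 for Mt-nd6 (SE 0.09, edgeR adjusted p = 0.720). The 95% intervals of the 10 together reached from -0.48 to 0.33, so differences of that size between the exposures were within the error of 4 animals per group.

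**Figure D3:**
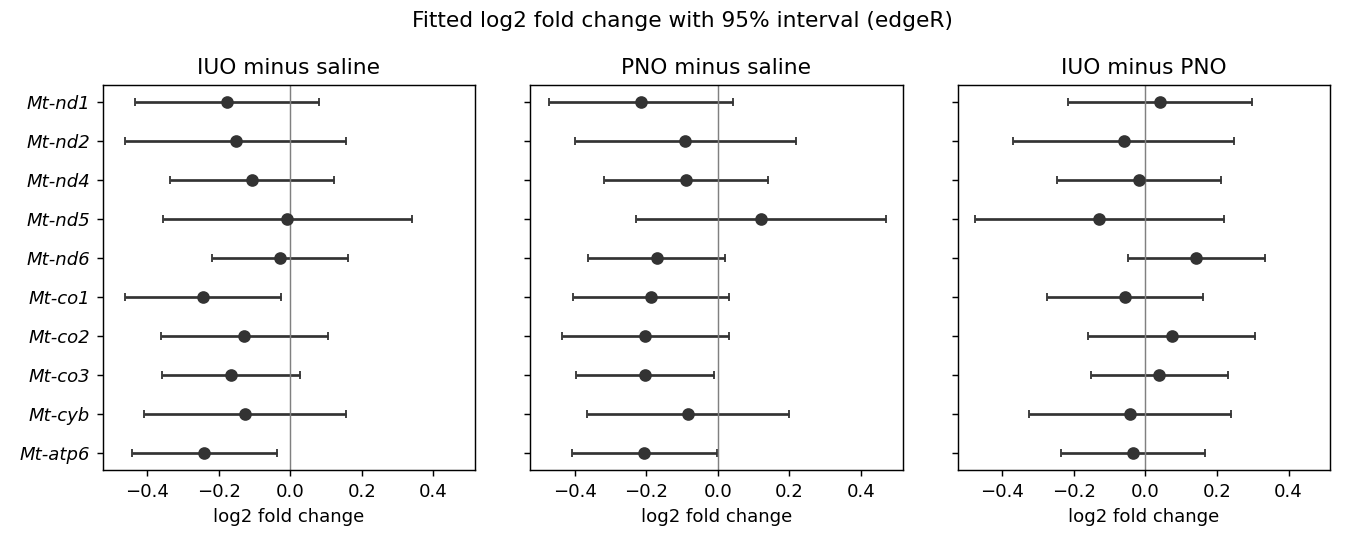
Fitted log2 fold change (horizontal axes) of the 10 messengers in the comparisons IUO minus saline, PNO minus saline and IUO minus PNO; points are edgeR estimates and bars their 95% intervals. The intervals of Mt-co1 and Mt-atp6 for IUO and of Mt-co3 and Mt-atp6 for PNO end just under 0, and all others include 0; these intervals are not adjusted for the number of genes tested.

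Some of these values moved with single libraries, with the region markers and with gene length. The median of the 10 for IUO against saline was -0.07 without IUO 4 and lay between -0.18 and -0.12 when any other library was left out. It was -0.27 without the 4 libraries with raised striatal markers, which leaves IUO 3 and IUO 4 as the only IUO libraries. The median was -0.19 without the 4 libraries with raised bulb markers, and -0.32 with both marker scores as covariates. For PNO against saline the median was -0.23 without the striatal libraries and -0.29 with both scores as covariates, but -0.06 without the bulb libraries, which leaves PNO 2 as the only PNO library, assumed to vary like those of the other groups. It was -0.03 after removal of a trend on gene length from each library, and 6 of the 10 were then negative. In that setting the median was -0.12 for IUO against saline, with 9 of 10 negative. For IUO against PNO it was -0.11, with 10 of 10 negative. None of the 10 was called under any of these settings. The part of tissue borders and of RNA quality in the differences was not tested further.

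Markers of cell types were set beside the 10 genes. Pearson's r between the mean log2 CPM of a marker list and that of the 10 was taken over the 12 libraries, which share their scaling. It was 0.45 for 4 cortical pyramidal neuron genes and -0.31 for the 2 blood genes in the table. For the other lists it lay between -0.29 (olfactory bulb) and 0.23 (endothelium), and no list was at 0 in all libraries. The pyramidal markers summed to 1572 to 2312 CPM in IUO, 1853 to 2388 CPM in PNO and 1993 to 2642 CPM in saline libraries. Astrocyte markers summed to 1250 to 1548 CPM in IUO, 1239 to 1454 CPM in PNO and 1181 to 1680 CPM in saline libraries. Oligodendrocyte markers summed to 5832 to 13856 CPM in IUO, with IUO 2 the highest, 6253 to 10010 CPM in PNO and 5577 to 9898 CPM in saline libraries. Choroid plexus markers summed to 204 CPM in IUO 2, against 1.36 to 21.1 CPM in the other libraries. The blood genes reached 3613 CPM in IUO 4 and 3631 CPM in saline 1, the library with the lowest and the library with the highest share of counts on the 10 genes.

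The 10 messengers did not vary as a single unit. Over the 12 libraries the Pearson's r of log2 CPM between 2 of them had a median of 0.58 over the 45 pairs, from -0.51 (Mt-nd5 with Mt-co2) to 0.93 (Mt-co1 with Mt-atp6), and 4 pairs were negative. Without IUO 4 the median was 0.63 and the range -0.27 to 0.95, with 3 negative pairs. Among the highest pairs were Mt-co1 with Mt-co3 (0.90) and Mt-nd2 with Mt-cyb (0.89, and 0.72 without IUO 4), while Mt-nd1 was at 0.86 with Mt-co1 and at 0.87 with Mt-nd4. These correlations share libraries and scaling and describe these 12 animals only.

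The balance among the mitochondrial messengers differed most in IUO 4. Relative to the saline mean, and within the sum of the 13 messengers, Mt-co2 was at 0.47 and Mt-nd6 at 0.37 on the log2 scale in that library, while Mt-nd2 was at -0.24, Mt-cyb at -0.20 and Mt-nd5 at -0.18. The short messengers Mt-nd3, at 0.67, Mt-nd4l, at -0.75, and Mt-atp8, at -0.47, lay farther out. The 2 ribosomal RNAs stood at 0.80 and 0.84 relative to the messengers. Saline 1 had some of the same tilt, with Mt-nd4l at -0.35, Mt-nd2 at -0.25 and Mt-nd5 at -0.20, but its ribosomal RNAs were at 0.05 and -0.07.

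**Figure D4:**
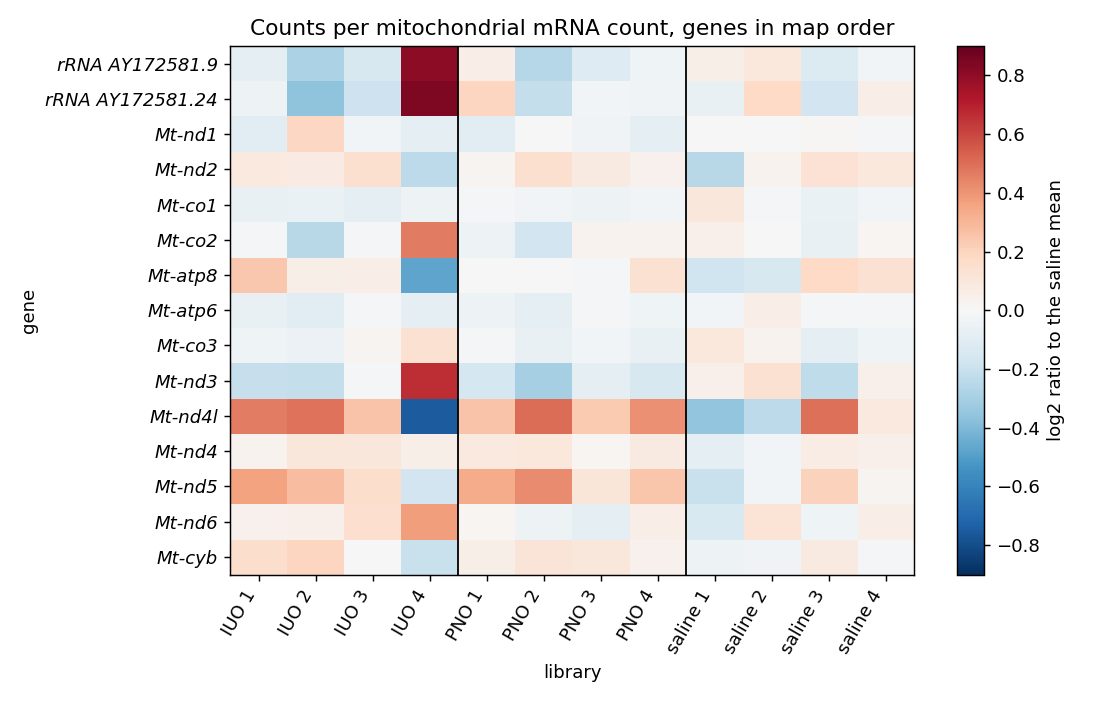
Colour map of the log2 ratio to the saline mean of each gene's counts divided by the summed counts of the 13 mitochondrial messengers, for the 2 ribosomal RNAs and the 13 messengers in map order (rows) and the 12 libraries (columns). IUO 4 has the strongest colours, from -0.75 for Mt-nd4l to 0.84 for the ribosomal RNA AY172581.24.

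In absolute shares, Mt-co2 was 12.5% of the 13 messengers' counts in IUO 4 against 7.57% to 9.29% in the other libraries, and Mt-nd4l was 0.43% there against 0.56% to 1.02%. Ribosomal RNA amounted to 7.22, 5.98, 6.69 and 13.3 counts per 100 messenger counts in IUO libraries, 8.27, 6.40, 7.19 and 7.34 in PNO libraries, and 7.45, 8.31, 6.77 and 7.65 in saline libraries. Ribosomal RNA in poly(A) libraries is what the selection carries along, so its level is not that of the tissue. Mt-nd6 relative to the other 9, as a log2 ratio of counts, was -6.63, -6.63, -6.52 and -6.31 in IUO libraries, -6.66, -6.72, -6.76 and -6.61 in PNO libraries, and -6.83, -6.56, -6.71 and -6.62 in saline libraries. The mean ratio was 0.15 higher in IUO than in saline rats, and 0.08 higher without IUO 4.

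Among the 10 genes the tilt was followed in the ratio of Mt-nd5 to Mt-co2, a pair chosen after its values were seen. Its log2 was -1.59, -1.44, -1.80 and -2.62 in IUO libraries, -1.59, -1.37, -1.90 and -1.75 in PNO libraries, and -2.22, -1.998, -1.70 and -1.97 in saline libraries. It moved with the trend on gene length across the 14170 tested genes in each library, which was measured as Spearman's rho between a gene's deviation from the mean library and its length. That rho was 0.25, 0.21, -0.16 and -0.35 in IUO libraries. It was 0.26, 0.31, -0.09 and 0.18 in PNO libraries, against 0.02, -0.28, -0.11 and -0.21 in saline libraries. PNO 1, PNO 2 and PNO 4 thus lay above every saline library, and PNO 3 lay under saline 1. IUO 4 and PNO 2, with the lowest and the highest rho, also had the lowest and the highest ratio. Over the 12 libraries Pearson's r between the ratio and the length trend was 0.78, and 0.71 over the 11 without IUO 4, with the same counts entering both. By the lengths that counts and FPKM imply, Mt-nd5 is the longest of the 10 (1977 bases) and Mt-co2 is shorter (739 bases). The pair thus differs in length itself. The log2 ratio of Mt-nd4l to Mt-nd3 had a wider range, from -1.06 in IUO 4 to 1.15 in PNO 2, and ran with that of Mt-nd5 to Mt-co2 (r = 0.95, n = 12). Its Pearson's r with the length trend was 0.72, and 0.63 without IUO 4. In that pair Mt-nd4l (321 bases) is shorter than Mt-nd3 (376 bases). The part of RNA quality in this balance was not tested, since the files hold no integrity number.

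**Figure D5:**
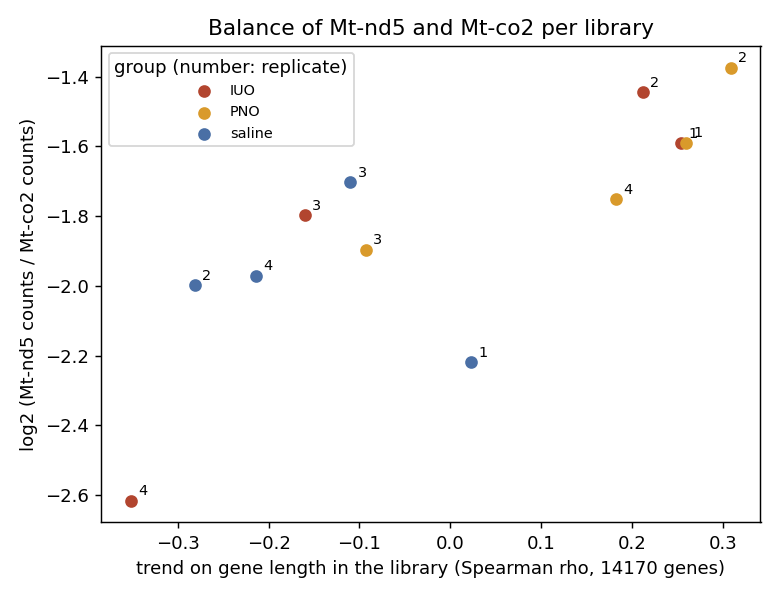
Log2 ratio of Mt-nd5 counts to Mt-co2 counts (vertical axis) against the trend on gene length in the same library (horizontal axis, Spearman's rho over 14170 genes); each point is 1 library, numbered by replicate and coloured by group. IUO 4 lies at the lower left (-2.62) and PNO 2 at the upper right (-1.37), and the 3 groups overlap.

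The 3 mitochondrial messengers outside the set behaved no more uniformly. Mt-nd3, another complex I subunit, averaged 756 ± 37.2 CPM in PNO and 956 ± 90.1 CPM in saline rats, with no overlap between the libraries, a log2 fold change of -0.34 (SE 0.14, edgeR adjusted p = 0.417). Mt-nd4l averaged 1406 ± 238 CPM in PNO and 1260 ± 377 CPM in saline rats, a log2 fold change of 0.16 (SE 0.28). Mt-atp8, the small ATP synthase subunit that overlaps Mt-atp6, had a log2 fold change of -0.14 (SE 0.18) for PNO. For IUO the 3 stood at -0.10, -0.01 and -0.19 (-0.27, 0.23 and -0.02 without IUO 4), and none passed the test in any comparison. The ribosomal RNA AY172581.9 averaged 4750 ± 297 CPM in PNO and 5643 ± 326 CPM in saline rats, without overlap (log2 fold change -0.25, SE 0.15), and AY172581.24 averaged 6278 ± 376 CPM in PNO and 7132 ± 565 CPM in saline rats (log2 fold change -0.18, SE 0.17). Of the 27 mitochondrial genes outside the set, 3 had no overlap between PNO and saline, all lower in PNO, beside 4.66% of all genes. Besides Mt-nd3 and AY172581.9 this was the transfer RNA gene AY172581.19, which overlaps Mt-co1. It averaged 327 ± 8.79 CPM in PNO and 418 ± 67.2 CPM in saline rats (log2 fold change -0.36, SE 0.16, edgeR adjusted p = 0.446).

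Of 42 nuclear genes listed for the transcription, processing, decay and translation of mitochondrial RNA, 41 were in the table and all 41 were tested. None passed the test in any comparison. For IUO against saline 23 were negative, beside 43.6% of all genes, and 18 positive, with a median log2 fold change of -0.02, and none had an unadjusted edgeR p under 0.05, beside 4.02% of all genes. Nrf1, a transcription factor for nuclear genes of mitochondria, had the smallest p of the list, with 13.7 ± 1.19 CPM in IUO and 16.5 ± 1.97 CPM in saline rats (log2 fold change -0.26, SE 0.12, edgeR adjusted p = 0.998). Next came Trmt10c, a subunit of the mitochondrial RNase P, at 0.25 (SE 0.14; 0.12 without IUO 4), the elongation factor gene Gfm1 at -0.18 (SE 0.10; -0.12 without IUO 4) and Tsfm, the exchange factor for Tufm, at -0.16 (SE 0.11). Tfam, which packages and helps to transcribe the mitochondrial genome, was at -0.05, the polymerase gene Polrmt at 0.11 and the messenger-stabilising Lrpprc at -0.03, these 3 named after their values were seen.

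For PNO against saline 26 of the 41 were negative, beside 48.8% of all genes, and 15 positive, with a median of -0.09. At an unadjusted edgeR p under 0.05, 3 were lower, beside 4.22% of all genes, and none was higher, beside 6.82%. Rexo2, an exonuclease that degrades short RNAs in mitochondria, had 66.2, 61.4, 68.0 and 73.5 CPM in PNO libraries against 84.5, 85.9, 78.7 and 89.8 CPM in saline libraries. All PNO libraries were under all saline libraries, with a log2 fold change of -0.33 (SE 0.10, edgeR adjusted p = 0.337). Taco1, a translational activator of Mt-co1, averaged 3.77 ± 0.102 CPM in PNO and 4.96 ± 0.400 CPM in saline rats (log2 fold change -0.40, SE 0.15, edgeR adjusted p = 0.412). Slirp, which binds mitochondrial messengers together with Lrpprc, averaged 9.28 ± 0.319 CPM in PNO and 12.02 ± 1.46 CPM in saline rats (log2 fold change -0.37, SE 0.17, edgeR adjusted p = 0.446). The groups did not overlap for these 3, beside 4.66% of all genes with PNO lower, and Mterf3, a negative regulator of mitochondrial transcription, followed at -0.32 (SE 0.15) with overlap. The list's PNO median was 0.01 when both region scores were covariates.

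Between IUO and PNO the same list had 17 negative values, beside 49.2% of all genes, 24 positive ones and a median of 0.04. Rexo2 averaged 81.4 ± 11.8 CPM in IUO and 67.3 ± 4.996 CPM in PNO rats (log2 fold change 0.27, SE 0.10, edgeR adjusted p = 0.714), and the groups overlapped. The next 3 by p were Slirp at 0.35 (SE 0.17), Mterf4, which acts in assembly of the mitochondrial ribosome, at 0.36 (SE 0.17), and Trmt10c at 0.28 (SE 0.14). IUO 4 was the highest library for these 3, and without it they were 0.19 for Slirp, 0.13 for Mterf4 and 0.15 for Trmt10c, with Rexo2 at 0.18.

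The nuclear-encoded subunits of the same complexes were read as a second list, of which 27 of 31 were in the table and were tested. For IUO against saline 16 were negative, beside 43.6% of all genes, and 11 positive, with a median log2 fold change of -0.01. None had an unadjusted edgeR p under 0.05, beside 4.02% of all genes. The list's 4 smallest p for IUO belonged to the complex IV gene Cox7c at -0.23 (SE 0.12) and the ATP synthase genes Atp5pb at -0.10 (SE 0.08), Atp5mc2 at -0.11 (SE 0.09) and Atp5f1a at -0.08 (SE 0.08). By complex, the IUO medians were 0.01 for complex I, -0.02 for complex III, -0.03 for complex IV and -0.04 for complex V. In this comparison the mitochondrially encoded median of -0.14 stood beside nuclear-encoded medians near 0. Without IUO 4 the nuclear subunits' IUO median was -0.14 and 27 of 27 were negative, beside -0.07 for the 10 messengers, and the difference between the 2 lists was not tested.

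For PNO against saline 27 of the 27 were negative, beside 48.8% of all genes, with a median of -0.18. By complex the medians were -0.12 for complex I, -0.07 for complex III, -0.25 for complex IV, with 8 of 8 negative, and -0.20 for complex V, with 9 of 9 negative. None passed the edgeR test. At an unadjusted p under 0.05, 4 were lower, beside 4.22% of all genes, and none was higher, beside 6.82%. The groups of 5 did not overlap, all lower in PNO, beside 4.66% of all genes. Atp5mc3, a gene for subunit c of the rotating ring, had 171, 146, 167 and 159 CPM in PNO libraries against 185, 191, 215 and 196 CPM in saline libraries. Every PNO library was under every saline library, with a log2 fold change of -0.29 (SE 0.08, edgeR adjusted p = 0.305), and DESeq2 called it with an adjusted p of 0.0403. Cox5a averaged 121 ± 10.2 CPM in PNO and 143 ± 7.98 CPM in saline rats (log2 fold change -0.24, SE 0.10), and Cox7c averaged 44.8 ± 4.62 CPM in PNO and 55.0 ± 6.52 CPM in saline rats (-0.29, SE 0.12). Atp5pb, in the peripheral stalk of the ATP synthase, averaged 228 ± 6.62 CPM in PNO and 258 ± 8.01 CPM in saline rats, without overlap (-0.18, SE 0.08). When the scores of both regions were covariates, the list's PNO median was 0.02, and without the libraries with raised bulb markers, which leaves PNO 2 alone in its group, it was -0.32.

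Between IUO and PNO 25 of the 27 nuclear subunits were positive and 2 negative, beside 49.2% negative among all genes, with a median of 0.17 (0.05 without IUO 4), beside -0.03 for the 10 mitochondrial messengers. Atp5mc3 averaged 192 ± 7.46 CPM in IUO and 161 ± 10.8 CPM in PNO rats, with no overlap, 1 of 27 beside 1.85% of all genes (log2 fold change 0.25, SE 0.07, edgeR adjusted p = 0.714). Ndufv2 at 0.26 (SE 0.13), Atp5pd at 0.33 (SE 0.17) and Ndufs3 at 0.23 (SE 0.12) followed, all with overlap. IUO 4 was the highest library for these 3, and without it they were 0.09 for Ndufv2, 0.08 for Atp5pd and 0.06 for Ndufs3.

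Among 7820 nuclear genes with a mean of at least 5 FPKM, those whose log2 CPM ran most like the mean of the 10 over the 12 libraries were sought by Pearson's r. The highest was Ero1a, an oxidase that forms disulfide bonds in the endoplasmic reticulum, with r = 0.92, and 0.87 without IUO 4. Ero1a had 77.0, 79.6, 78.5 and 63.8 CPM in IUO libraries, 75.1, 82.6, 69.7 and 80.7 CPM in PNO libraries, and 85.3, 71.9, 89.4 and 86.3 CPM in saline libraries. IUO 4 was its lowest library, as for the mean of the 10. NEWGENE_1359268 followed with r = 0.91, then Fech, which inserts iron to form haem in mitochondria, with 0.85, the cytochrome b561 gene Cyb561 with 0.85 and the transcription factor gene Max with 0.83. Without IUO 4 these 4 had r between 0.73 and 0.86, and the median r over the 7820 genes was -0.02. As the highest of many correlations over 12 libraries that share scaling, they are a description of these animals.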

How the data were processed

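Per the labels, Direct-Zol RNA was made into poly(A) TruSeq stranded libraries. Per the submitters' processing notes HISAT2 and StringTie were used; for their versions, for the genome build and for the annotation nothing is stated (not given in the sources used here). Per gene and library, the authors deposited whole-number counts, and beside them FPKM values, which the file headers name. The members and the gene lists were chosen with earlier results of these data known.

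The main test was the edgeR quasi-likelihood test on the deposited counts, on the 14170 genes with a mean of at least 0.5 FPKM over 12 libraries, with TMM scaling (trimmed mean of M values), 1 model of 3 groups, two-sided tests and Benjamini-Hochberg adjustment over all genes tested (threshold 0.05). CPM are counts scaled with these factors to a common library size, and log2 CPM used a prior count of 2. The summed CPM of marker lists were instead scaled by the total counts of each library, without these factors. Correlations and FPKM ranks were given without a test. Total counts of 49227533 to 60672246 per library leave little counting error for these genes, and poly(A) reads without molecular identifiers are not independent molecules. Scaling moved no all-gene median by over 0.1 on the log2 scale.

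The text names all 10 genes, the other mitochondrial messenger and ribosomal RNA genes, the 4 genes with the smallest p of each nuclear list in each comparison and the 5 nuclear genes most like the mean of the 10, and says where a name was added after its value was seen. Alternatives were DESeq2, limma on log2(FPKM + 0.5), other pseudocounts (0.1 and 1), filters, scalings and fits, a replicate block, removal of a trend on gene length, region markers as covariates or as grounds to leave libraries out (over 0.8 log2 above the median), and each library left out. Recalculations of the Mt-nd6 ratio, the likeness and the correlations from FPKM or without a library were added after the data were seen. Software was edgeR 4.0.16, DESeq2 1.42.0 and limma 3.58.1 under R 4.3.3, with tables and plots from Python 3.11.15 and matplotlib 3.10.9, and the edgeR fit was checked on simulated counts. For IUO against saline it recovered 66% of 100 genes changed by 1 on the log2 scale and 21% of 100 changed by 0.5. There were 7 false calls. Changes as small as those fitted for the 10 genes were not simulated, so the absence of a call does not show the absence of such a change. Sequences of these genes were not used here. Transfer RNA genes are given as counts, and those named were chosen after their values were seen or for an overlap with a messenger. Besides the 31 nuclear subunits listed, 1 further gene is not reported here.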

Additional observations from a re-analysis of the deposited data

Results flagged for a closer look

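Of 54 groups of 4 libraries examined for a library far from the others with Dixon's criterion (95% level), 4 had one, and chance alone gives about 1 in 20. IUO 4 accounted for 3 of them. It had 13.3 ribosomal RNA counts per 100 mitochondrial messenger counts, 7713 CPM of the ribosomal RNA AY172581.9, and 2479 CPM of Mt-atp8. In the saline group, saline 2 had 11572 CPM of Mt-nd1, under the other 3 libraries.

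The transfer RNA gene AY172581.1, between Mt-co2 and Mt-atp8 on the map, lay on opposite sides of the saline mean in the 2 oxycodone groups. It averaged 3.86 ± 0.440 CPM in IUO, 2.68 ± 0.378 CPM in PNO and 3.01 ± 0.530 CPM in saline rats (SD, n = 4 each). The difference between IUO and PNO was 0.53 on the log2 scale (SE 0.18, edgeR adjusted p = 0.714), and the libraries of these groups did not overlap. Of the 27 mitochondrial genes other than the 10, 2 had all IUO libraries above all PNO libraries, beside 1.85% of all genes. The other was the transfer RNA gene AY172581.8, with 0.88 CPM in IUO, 0.53 CPM in PNO and 0.75 CPM in saline rats. Transfer RNA lacks the tail that poly(A) selection binds.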

How the results depend on the processing

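None of the 10 messengers was called in any comparison under any of the 28 other settings. Of 280 fold changes (10 genes by 28 settings) in each comparison, 271 kept their sign for IUO against saline, 271 for PNO against saline and 255 for IUO against PNO. Where a sign turned, the cause was not tested.

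DESeq2 called 11 genes for IUO against saline, 117 for PNO against saline, 1 of them a nuclear subunit, and 8 for IUO against PNO. For PNO against saline, limma called 1 gene with each pseudocount and the fit of only these groups called 11. Limma put the machinery list's PNO median at -0.026 (pseudocount 0.5), -0.027 (0.1) and -0.023 (1). With library size only, for IUO against saline, Mt-nd4l was 0.026 and Mt-nd5 0.021.

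With the length trend removed, the PNO median of the 10 was -0.032. In PNO against saline, Mt-cyb was then 0.037, Mt-nd2 0.037 and Mt-nd4 0.012. In IUO against saline Mt-nd4l was 0.084 and Mt-nd5 0.012. In IUO against PNO Mt-co2 was -0.073, Mt-co3 -0.080, Mt-nd1 -0.057 and Mt-nd6 -0.0017.

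With striatal and bulb scores as covariates, IUO against saline had 1 gene called, a median of -0.32 for the 10 and 0.047 for the machinery list, with Mt-co2 at 0.011, Mt-nd3 at 0.081, AY172581.9 at 0.20 and AY172581.24 at 0.21. PNO against saline had a machinery median of 0.0075 and a nuclear subunit median of 0.019, with Mt-co2 at 0.010, Mt-nd5 at -0.28, Mt-nd4l at -0.66, AY172581.9 at 0.22 and AY172581.24 at 0.31. IUO against PNO had Mt-atp6 at 0.028, Mt-atp8 at 0.095, Mt-cyb at 0.022, Mt-nd2 at 0.057, Mt-nd4 at 0.034, Mt-nd4l at 0.011, AY172581.9 at -0.021 and AY172581.24 at -0.11.

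Without the libraries with raised striatal markers, 4 genes were called for IUO against saline and 3 for IUO against PNO. IUO 3 and IUO 4 were then the only IUO libraries. The IUO medians were -0.27 for the 10 and 0.041 for the machinery list and 0.14 for the nuclear subunits, with Mt-nd6 at 0.037, Mt-nd3 at 0.12, AY172581.9 at 0.14, AY172581.24 at 0.17, Atp5mc2 at 0.010 and Atp5pb at 0.0027. PNO against saline had Mt-nd5 at -0.033 and Mt-nd4l at -0.060, and IUO against PNO had Mt-nd4 at 0.0089. Without the libraries with raised bulb markers, which leaves PNO 2 alone in its group, 1 gene was called for IUO against saline. The median of the 10 was -0.056 for PNO against saline, with Mt-cyb at 0.074, Mt-nd2 at 0.10 and Mt-nd4 at 0.057, and -0.20 for IUO against PNO, with Mt-co3 at -0.11 and Mt-nd1 at -0.17. The nuclear subunits' medians were -0.32 for PNO against saline and 0.31 for IUO against PNO.

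With 1 library left out at a time, 0 to 1 genes were called for IUO against saline, 0 to 19 for PNO against saline (19 without IUO 4) and 0 to 1 for IUO against PNO. The machinery list's PNO median ran from -0.098 to -0.037 (without saline 1). The nuclear subunits' median ran from -0.14 (without IUO 4) to 0.036 for IUO against saline and from 0.046 (without IUO 4) to 0.24 for IUO against PNO. In IUO against saline, Mt-nd4l ran from -0.15 to 0.23, Mt-nd5 from -0.075 to 0.13, Mt-nd6 from -0.061 to 0.010, AY172581.9 from -0.30 to 0.020 and AY172581.24 from -0.32 to 0.033. In IUO against PNO, Mt-nd1 ran from -0.062 to 0.12, Mt-nd2 from -0.12 to 0.061, Mt-nd4 from -0.057 to 0.042, Mt-nd5 from -0.20 to 0.011 and Mt-co2 from -0.018 to 0.14. In the same comparison Mt-cyb ran from -0.13 to 0.074, Mt-atp6 from -0.079 to 0.023, Mt-atp8 from -0.13 to 0.12, Mt-nd4l from -0.31 to 0.075, AY172581.9 from -0.048 to 0.27 and AY172581.24 from -0.14 to 0.22. Most of these turned without IUO 4.

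The replicate numbers do not mark a shared dam or batch in the labels, and same-numbered libraries deviated together with r of 0.02 to 0.41, 8 of 12 correlating best with their own number. The highest r was between IUO 2 and PNO 2, which both had raised striatal markers. Saline 2 had them too, with r of 0.03 to IUO 2 and 0.12 to PNO 2. Whether libraries of 1 number share a source was not tested. With the number as a replicate block, 0 genes were called in each comparison and the medians of the 10 were -0.15 (IUO against saline), -0.18 (PNO against saline) and -0.03 (IUO against PNO).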

Other observations

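Of the 27 mitochondrial genes other than the 10, 22 of them transfer RNA genes, none passed the edgeR or the DESeq2 test in any comparison. At an unadjusted edgeR p under 0.05 there was 1 for IUO against saline, beside 4.02% of all genes, 2 for PNO against saline, beside 11.0%, and 2 for IUO against PNO, beside 6.73%. Of these 27, 8 were negative and 19 positive for IUO against saline, beside 43.6% negative among all genes. For PNO against saline 16 were negative and 11 positive, beside 48.8% negative. For IUO against PNO 4 were negative and 23 positive, beside 49.2% negative. In IUO 4 several transfer RNA genes departed in the same library that had the tilted messenger balance, and they did so in 2 directions along the map. AY172581.15, at 3835 to 3903 of chromosome MT between Mt-nd1 and Mt-nd2, had 52.3, 52.0, 53.7 and 16.4 CPM in IUO libraries, 37.4, 48.3, 40.6 and 46.4 CPM in PNO libraries, and 32.1, 33.6, 60.5 and 57.6 CPM in saline libraries. IUO 4 was the lowest of the 12 libraries, with saline 1 and saline 2 the next lowest. AY172581.16, at 9800 to 9867 between Mt-nd3 and Mt-nd4l, had 4.48, 2.91, 3.36 and 9.37 CPM in IUO libraries, 4.32, 2.46, 2.62 and 4.10 CPM in PNO libraries, and 6.11, 3.39, 2.91 and 3.71 CPM in saline libraries. There IUO 4 was the highest and saline 1 the next. Relative to the messengers and the saline mean, AY172581.17 and AY172581.11, which lie in the gap between Mt-nd4 and Mt-nd5, stood at 1.62 and 1.72 on the log2 scale in IUO 4. These genes were named after their values were seen, and no test was run on them as a group.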
